A study of Danio rerio with 19 samples.

Results

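The Nr2f genes encode COUP-TF nuclear receptors, and 6 of them were followed here in pharyngeal arch cells of the zebrafish embryo. They were taken by name from a deposited table of 31953 genes as nr2f1a, nr2f1b, nr2f2, nr2f5, nr2f6a and nr2f6b, and their levels were read in all 19 RNA-seq libraries. In the table they carry the Ensembl identifiers ENSDARG00000052695 (nr2f1a), ENSDARG00000017168 (nr2f1b), ENSDARG00000040926 (nr2f2), ENSDARG00000033172 (nr2f5), ENSDARG00000003607 (nr2f6a) and ENSDARG00000003165 (nr2f6b). Each name matched 1 row, and all 6 genes passed the filter on low values in every test across genes.

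COUP-TF receptors are orphan nuclear receptors that bind DNA through zinc fingers, as pairs of their own kind or together with retinoid X receptors. They often repress, and they can compete with retinoic acid receptors for binding sites. In the pharyngeal arches, Endothelin 1 and Bmp signals give ventral cells a lower jaw identity and restrict Jagged-Notch signalling to dorsal cells. Nr2f genes are known from zebrafish for their role in the dorsal, upper jaw part of the first arch, where their combined loss gives upper jaw skeleton with lower jaw features.

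Cells had been sorted by fluorescent reporters. The ventral-sorted cells were wild-type cells named for hand2 and sox10 (2 libraries) or for dlx5a and sox10 (1 library), and their titles do not name the fli1a reporter. The edn1-/- cells (2 libraries, genotyped embryos) carried both fli1a:GFP and sox10:DsRed, and their comparison group was wild-type cells with both reporters, called all-arch cells below (3 libraries). Wild-type cells with fli1a:GFP alone (3 libraries, labelled as mixed or vascular) and with sox10:DsRed alone (3 libraries, labelled as mixed or ear) came from outside the arch sort. A jag1b-/- library had a jag1b+/+ library beside it, both from genotyped embryos. Heat-shocked embryos gave 1 library each with hspGal4 and UASEdn1, with hspGal4 and UASNICD (the active intracellular part of Notch), and with hspGal4 alone. The titles of the jag1b and heat-shock libraries name both fli1a and sox10, as those of the edn1-/- and all-arch cells do. A heat-shock promoter acts in most cells of the embryo, so the drive was not limited to the arches. All libraries were labelled 36 hpf (hours post fertilisation) except the sox10-only ones, which were labelled 20, 28 and 36 hpf, while the design text of the series describes them as replicates collected with the arch cells. Nothing in the labels ties a replicate to its own clutch of embryos, so the p-values rest on library-to-library spread, part or all of which may be technical.

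Levels are in TPM, transcripts per 1000000 after each gene is divided by its length, so levels can be compared between genes. The sequencing depth behind them is unknown. Summed arch neural crest markers (8 genes, dlx2a and barx1 among them) came to 3498 to 6243 TPM in all-arch cells, 879 to 1152 TPM in fli1a-only cells and 228 to 379 TPM in sox10-only cells. Globin transcripts took 22.7% to 61.5% of the fli1a-only libraries and at most 1.37% of the 13 arch libraries. Endothelial markers summed to 549 to 2626 TPM in fli1a-only cells, pigment cell markers to 10119 to 30613 TPM in sox10-only cells and ear markers to 80.6 to 422 TPM in sox10-only cells. In all-arch cells the same 3 sums were 33.6 to 64.2 TPM, 15.1 to 824 TPM and 2.06 to 4.31 TPM. The library labelled jag1b-/- had 5.85 TPM of jag1b, against 31.6 TPM in jag1b+/+, and edn1 stood at 20.9 TPM in the heat-shock Edn1 library, against 1.37 TPM in the Gal4 library. In the edn1-/- libraries edn1 was at 0.00 and 0.25 TPM, and in the all-arch libraries it was no higher than 0.55 TPM, so its level was too low there to check the mutant label.

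All 6 genes were present in every library, at very unequal levels. In wild-type all-arch cells nr2f1a was the most abundant, at 275 ± 101 TPM (SD, n = 3), followed by nr2f1b at 161 ± 42.1 TPM and nr2f6a at 113 ± 8.34 TPM. nr2f5 averaged 63.1 ± 10.8 TPM, nr2f6b 36.4 ± 15.3 TPM and nr2f2 13.8 ± 5.55 TPM (SD, n = 3 each). The order was the same in all 3 all-arch libraries. nr2f2 was the lowest of the 6 in 19 of 19 libraries, and nr2f1a was first in 14 and second in the other 5. Whether reads shared by the duplicates nr2f1a and nr2f1b, or nr2f6a and nr2f6b, were split between them is not stated by the labels. Levels within each pair carry that uncertainty.

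The genes differed in how far they ranged. nr2f1b spanned 10.05 to 282 TPM with a median of 123 TPM over the 19 libraries, a ratio of 28.0 between the highest and the lowest. nr2f5 spanned 8.70 to 111 TPM with a median of 50.8 TPM, a ratio of 12.7. In TPM these 2 genes had the widest ranges of the family. The lowest levels of nr2f5, nr2f6a and nr2f6b were all in fli1a-only replicate 2, where globin transcripts took 61.5% of the library. Ranges with globin genes left out were not taken, so the order of these ratios is not read as a trait of the genes. The ratio was 9.12 for nr2f6b (9.35 to 85.2 TPM), 7.53 for nr2f1a (50.6 to 381 TPM), 5.58 for nr2f6a (22.0 to 123 TPM) and 5.31 for nr2f2 (3.46 to 18.4 TPM).

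**Figure D1:**
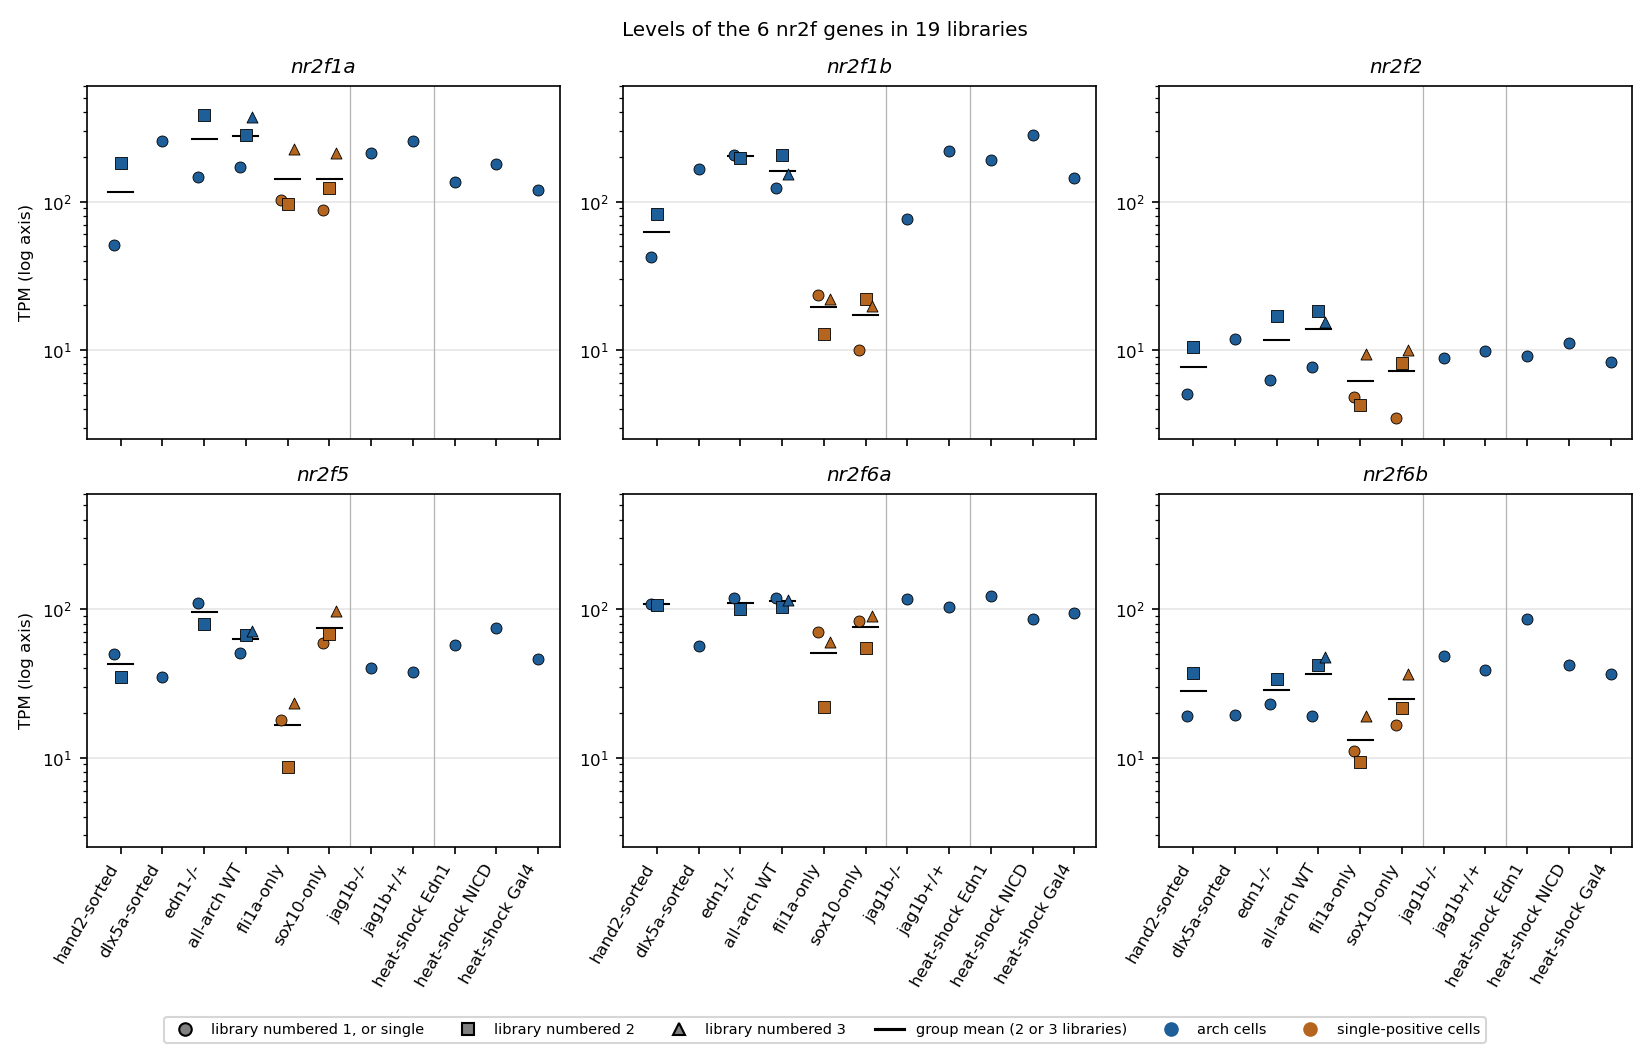
Levels of the 6 nr2f genes in TPM (log axis) in 19 libraries, with 1 panel per gene; points are libraries shaped by replicate number, and black lines are means of groups with 2 or 3 libraries. nr2f1b lies between 10.05 and 23.3 TPM in the single-positive cells and at 42.4 TPM or more in every arch library, while nr2f5 is low in fli1a-only cells alone.

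The first question was which family members mark arch cells against the cells that carry only 1 of the 2 reporters. nr2f1b had the largest differences. It was 8.29-fold higher in all-arch than in fli1a-only cells and 9.35-fold higher than in sox10-only cells, as ratios of mean TPM. nr2f5 was 3.80-fold higher in all-arch than in fli1a-only cells, but its all-arch and sox10-only libraries overlapped. These are bulk libraries, in which fewer cells of a type and less RNA per cell cannot be told apart.

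nr2f1b, whose mammalian counterpart Nr2f1 patterns the forebrain, had 123, 206 and 153 TPM in all-arch cells, against 23.3, 12.7 and 22.1 TPM in fli1a-only cells. In sox10-only cells it had 10.05, 21.9 and 19.6 TPM. Every all-arch library was far above every single-positive one, and the fli1a-only and sox10-only libraries overlapped. With limma on log2(TPM + 1), the difference from fli1a-only cells was 3.00 (SE 0.40, 95% interval 2.14 to 3.86, Benjamini-Hochberg adjusted p = 0.000621). From sox10-only cells it was 3.19 (SE 0.40, interval 2.33 to 4.05, limma adjusted p = 0.000112). Among libraries with the same replicate number, all-arch exceeded fli1a-only 5.29-, 16.2- and 6.90-fold and exceeded sox10-only 12.3-, 9.43- and 7.77-fold.

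nr2f5, a family member kept in fish and missing from mammals, had 50.8, 67.2 and 71.3 TPM in all-arch cells, against 17.9, 8.70 and 23.3 TPM in fli1a-only cells. Sox10-only cells had 58.9, 68.4 and 96.7 TPM. The fli1a-only libraries were below every other sorted wild-type library, and the all-arch and sox10-only libraries overlapped. The limma difference was 1.95 between all-arch and fli1a-only cells (SE 0.40, interval 1.09 to 2.80, adjusted p = 0.0121) and -0.22 between all-arch and sox10-only cells (interval -1.08 to 0.63, adjusted p = 0.889). Between the single-positive populations nr2f5 was lower in fli1a-only than in sox10-only cells, by a log2 difference of -2.17 (SE 0.40, interval -3.03 to -1.32, limma adjusted p = 0.0018). The median gene itself differed by -0.78 in that comparison, where 24.4% of genes passed as lower, and relative to that median nr2f5 was at -1.39.

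nr2f1a, the counterpart of nr2f1b from the fish genome duplication, had 169.8, 282 and 372 TPM in all-arch cells, against 103, 96.8 and 226 TPM in fli1a-only cells and 87.7, 123 and 212 TPM in sox10-only cells. The lowest all-arch library lay within both other groups. The limma differences were 0.99 (SE 0.47, adjusted p = 0.128) and 0.98 (SE 0.47, adjusted p = 0.262). With the replicate number as a block, both differences passed limma's threshold (adjusted p = 0.0232 from fli1a-only and 0.0422 from sox10-only cells). The difference from sox10-only cells also passed after median-of-ratios rescaling (limma adjusted p = 0.0248).

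nr2f2, known in mouse for vein identity, had 7.63, 18.4 and 15.4 TPM in all-arch cells, against 4.805, 4.25 and 9.35 TPM in fli1a-only cells and 3.46, 8.11 and 9.95 TPM in sox10-only cells. The groups overlapped, and the limma differences of 1.04 (adjusted p = 0.105) and 0.87 (adjusted p = 0.316) did not pass. With the replicate block the first of these passed (limma adjusted p = 0.0141), and all-arch exceeded fli1a-only cells 1.59-, 4.32- and 1.64-fold within a replicate number. The difference from sox10-only cells passed after median-of-ratios rescaling and after quantile normalization (lowest limma adjusted p = 0.0236). In TPM nr2f2 was not above its arch level in the fli1a-only libraries, whose endothelial marker sum was the highest of the series. Globin transcripts took 22.7% to 61.5% of those libraries. As a share of the family nr2f2 was at 2.09% to 2.77% in fli1a-only cells, against 1.56% to 2.56% in all-arch cells.

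nr2f6a and nr2f6b belong to the NR2F6 branch, known in mouse for restraining T cells. nr2f6a had 119, 103 and 116 TPM in all-arch cells, against 69.9, 22.0 and 60.4 TPM in fli1a-only cells and 83.0, 54.8 and 89.8 TPM in sox10-only cells. Its all-arch libraries were above all the others, yet the limma differences of 1.29 (adjusted p = 0.0672) and 0.59 (adjusted p = 0.574) did not pass. The replicate block brought the first of these past the threshold (limma adjusted p = 0.00818). nr2f6b had 18.96, 42.3 and 47.8 TPM in all-arch cells, against 11.03, 9.35 and 19.1 TPM in fli1a-only cells and 16.7, 21.6 and 36.5 TPM in sox10-only cells. Its groups overlapped, and its limma differences were 1.36 (adjusted p = 0.0646, and 0.00443 with the replicate block) and 0.50 (adjusted p = 0.691). Between fli1a-only and sox10-only cells nr2f6b differed by -0.86 (limma adjusted p = 0.134), which passed only with the replicate block (adjusted p = 0.0315).

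Counted over the family, 2 of 6 genes were higher in all-arch than in fli1a-only cells and 0 were lower, where 4.16% of 14270 tested genes were higher and 2.89% lower. Against sox10-only cells 1 of 6 was higher and 0 lower, where 3.4% of genes were higher and 10% lower. Between fli1a-only and sox10-only cells 1 of 6 was lower and 0 higher, where 24.4% of genes were lower and 4.06% higher. Libraries of all-arch cells lay wholly above those of fli1a-only cells for 3 of 6 genes, and so they did for 38.5% of all genes. Against sox10-only cells they lay wholly above for 2 of 6 genes, where 10.8% of all genes did.

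The fli1a-only counts moved with the setting. The median gene itself stood 0.68 higher in all-arch than in fli1a-only cells on the log2 scale. Relative to that median nr2f1b was 2.33 higher and nr2f5 1.27 higher, while nr2f6a and nr2f6b were 0.61 and 0.68 higher. With the replicate number as a block all 6 genes passed, but so did 6353 of the 14270 genes in that direction. Without fli1a-only replicate 3 all 6 also passed, with 4320 genes in all, and without all-arch replicate 3 only nr2f1b did, because nr2f5 then had a limma adjusted p of 0.0633. When globin genes were left out of the totals, nr2f5 stood 1.24 higher (limma adjusted p = 0.0164) and nr2f1b 2.28 higher (limma adjusted p = 0.00303), and the other 4 genes did not pass.

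**Figure D2:**
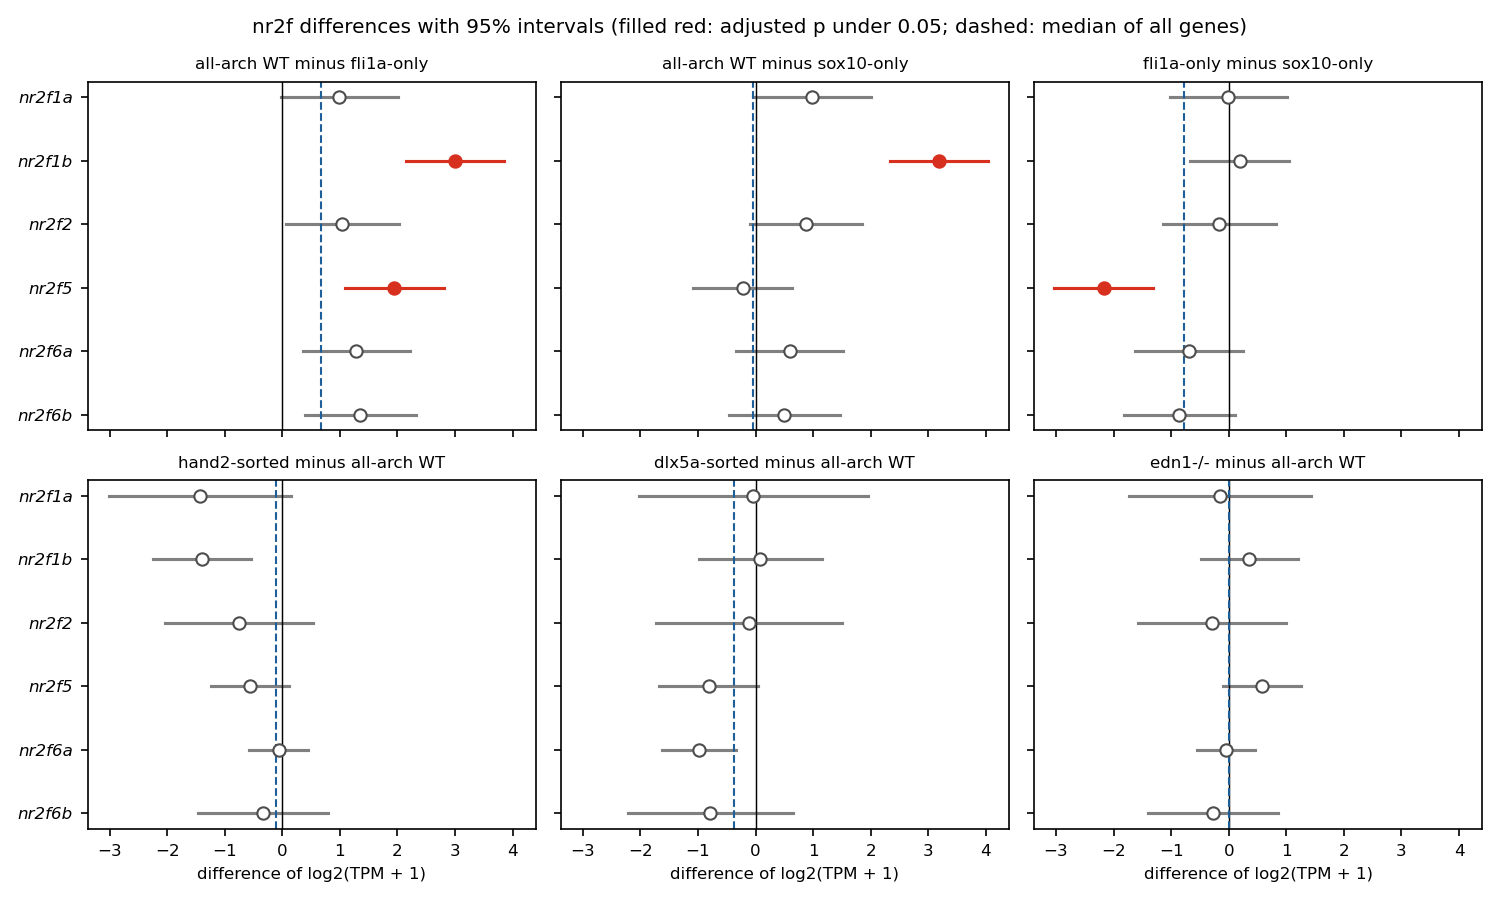
Differences of log2(TPM + 1) with 95% intervals from limma for 6 comparisons; filled red points have an adjusted p under 0.05, and dashed lines mark the median of all genes tested. nr2f1b stands at 3.00 and 3.19 in the all-arch comparisons, nr2f5 is lower in fli1a-only than in sox10-only cells by -2.17, and no gene passes in the lower panels.

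The make-up of the family also differed between the sorted populations, for nr2f1b, nr2f5 and nr2f6b. In each library the 6 levels were expressed as percentages of their sum, which does not depend on how libraries were scaled to each other. nr2f1b made up 19.7% to 28.7% of the family in all-arch cells, against 6.13% to 10.1% in fli1a-only cells and 3.87% to 7.35% in sox10-only cells. nr2f5 made up 9.20% to 10.4% in all-arch cells, against 5.65% to 7.77% in fli1a-only cells and 20.8% to 23.0% in sox10-only cells. For both genes the all-arch shares overlapped neither single-positive population, and for nr2f5 the single-positive populations did not overlap each other either. The ratio of nr2f1b to nr2f5 was 2.43, 3.07 and 2.14 in all-arch cells, against 1.31, 1.46 and 0.95 in fli1a-only cells and 0.17, 0.32 and 0.20 in sox10-only cells. The sum itself was 489 to 775 TPM in all-arch cells, 154 to 361 TPM in fli1a-only cells and 260 to 464 TPM in sox10-only cells.

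**Figure D3:**
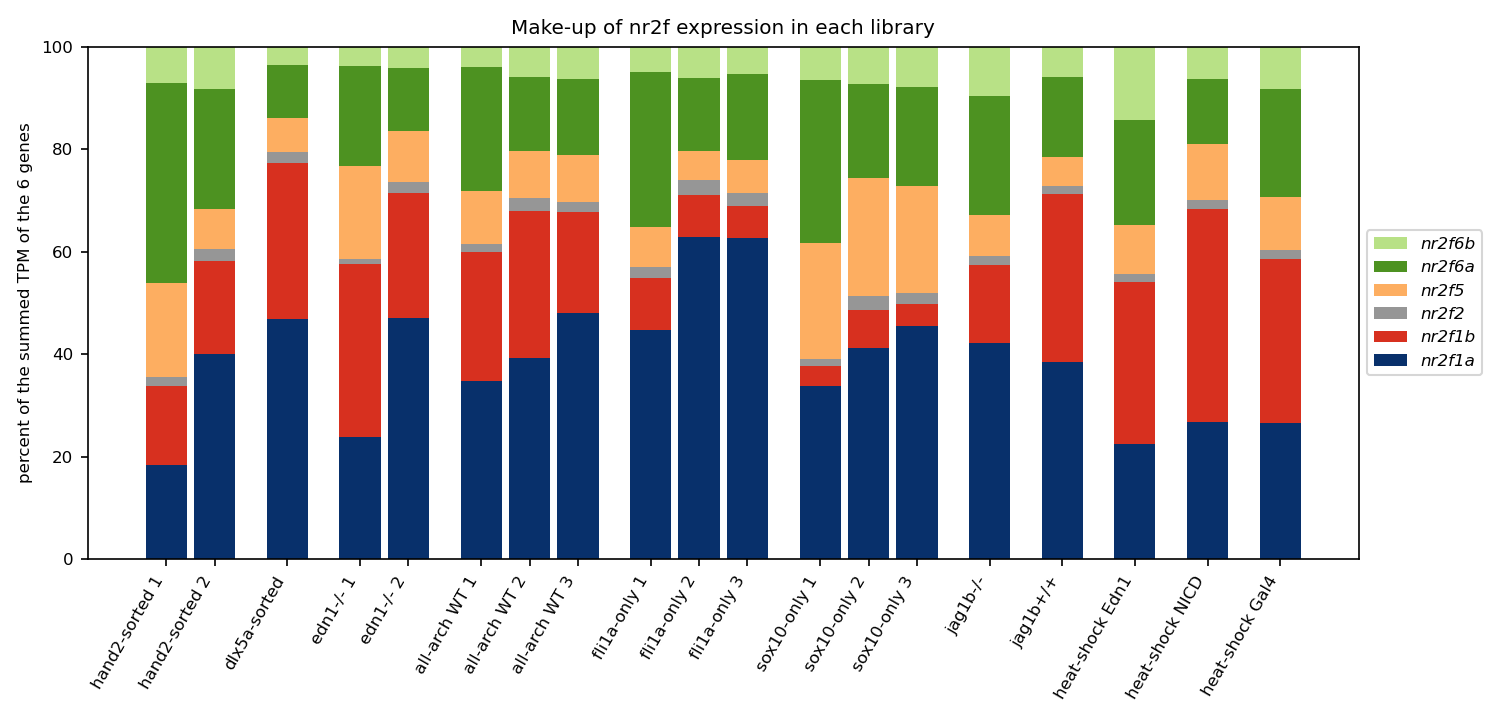
Each nr2f gene as a percentage of the summed TPM of the 6 genes, with 1 stacked bar per library. nr2f1b (red) takes 15.2% to 41.8% in the 13 arch libraries and 3.87% to 10.1% in the single-positive ones, and nr2f5 (orange) takes 20.8% to 23.0% in sox10-only cells.

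The hand2-sorted cells, which are ventral, were set against all-arch cells. All-arch cells take in ventral cells too, and no dorsal sort was among the libraries. A near-level gene here is therefore not shown to be used evenly along the arch. nr2f1b had 42.4 and 82.3 TPM in hand2-sorted cells, against 123, 206 and 153 TPM in all-arch cells, so both ventral libraries were below all 3. nr2f1a had 50.6 and 182 TPM in hand2-sorted cells, against 169.8, 282 and 372 TPM in all-arch cells, and these overlapped. nr2f5 had 50.2 and 35.1 TPM in hand2-sorted cells, just below the 50.8, 67.2 and 71.3 TPM of all-arch cells. nr2f6a stood nearly level, at 108 and 107 TPM in hand2-sorted cells, against 103 to 119 TPM in all-arch cells. nr2f2 had 5.05 and 10.4 TPM in hand2-sorted cells, against 7.63 to 18.4 TPM in all-arch cells, and nr2f6b had 19.1 and 37.1 TPM in hand2-sorted cells, against 18.96 to 47.8 TPM in all-arch cells, with overlap for both genes.

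None of the 6 genes passed limma's threshold here, where 1.55% of 13206 tested genes did. At an unadjusted p under 0.05 there was 1 of 6, nr2f1b, where 10.7% of all genes had such a p. Its log2 difference was -1.40 (SE 0.36, interval -2.24 to -0.55, unadjusted p = 0.00594, limma adjusted p = 0.158, and 0.0756 to 1 over the settings tried). The difference of nr2f1a was -1.43 (SE 0.66, limma adjusted p = 0.520). All 6 differences were negative in this fit, from -1.43 to -0.06, and that of nr2f6a turned to 0.10 after median-of-ratios rescaling and that of nr2f6b to 0.13 without hand2-sorted replicate 1. Libraries did not overlap for 2 of 6 genes, both lower in hand2-sorted cells, as they were for 15.7% of all genes.

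Other genes of the upper jaw were much lower in the same cells. pou3f3a and pou3f3b, POU factors of the dorsal arch, averaged 5.49 and 74.4 TPM in hand2-sorted cells, against 204 and 586 TPM in all-arch cells. jag1b, a Notch ligand gene of dorsal arch cells, averaged 6.88 TPM in hand2-sorted cells, against 36.1 TPM in all-arch cells. fgf20b, a gene for an Fgf ligand, averaged 0.516 TPM in hand2-sorted cells, against 16.8 TPM in all-arch cells. All 4 of this list passed as lower, with a median of -3.28, beside a median of -0.66 for the nr2f genes and -0.12 for all genes tested. This list was chosen with earlier results of these data known, so its median is not an independent yardstick for the nr2f genes. Of 10 ventral genes found, 1 passed as higher, hand2 itself, on which the cells had been sorted, and the median was 0.95. Summed epithelial markers were 1789 and 1695 TPM in hand2-sorted cells, against 86.5 to 1013 TPM in all-arch cells, and their part in these differences was not tested.

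The dlx5a-sorted cells had 1 library, whose spread limma takes to be like that of the other groups. nr2f6a had 56.6 TPM in it, against 119, 103 and 116 TPM in all-arch cells, a log2 difference of -0.98 (SE 0.27, interval -1.62 to -0.33, unadjusted p = 0.00885, limma adjusted p = 0.182). nr2f5 had 35.2 TPM in dlx5a-sorted cells, also below every all-arch library (difference -0.81, limma adjusted p = 0.316). The other 4 genes lay within the all-arch range, nr2f1b at 166 TPM with a difference of 0.08 (interval -0.99 to 1.15). None of the 6 passed, where 0.394% of genes did, and 1 of 6 had an unadjusted p under 0.05, where 16.9% of genes did. Over all genes 42 passed as lower, and 0 to 19 when 1 replicate of the other groups in the fit was left out. Summed ear markers were 123 TPM in the dlx5a-sorted library, against 2.06 to 4.31 TPM in all-arch cells, and epithelial markers 1499 TPM, against 86.5 to 1013 TPM, and their part in these differences was not tested. The median gene was itself 0.38 lower in this library, and 51.1% of genes lay below all 3 all-arch libraries. Of the 4 upper jaw genes 0 passed (median -1.39). The hand2, dlx5a and edn1-/- comparisons share the all-arch libraries.

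The edn1-/- cells asked what loss of the ventral signal does. nr2f5 had 111 and 79.6 TPM in edn1-/- cells, against 50.8, 67.2 and 71.3 TPM in all-arch cells, so both mutants were above all 3. Its log2 difference was 0.58 (SE 0.29, interval -0.10 to 1.26, limma adjusted p = 0.9999), and 9.7% of all genes lay wholly above in the same way. nr2f1b had 206 and 197 TPM in edn1-/- cells, against 123, 206 and 153 TPM in all-arch cells, with a difference of 0.36 (interval -0.49 to 1.20). nr2f1a had 145 and 381 TPM in edn1-/- cells, against 169.8, 282 and 372 TPM in all-arch cells, so the mutant libraries lay on either side of all 3. nr2f6a had 119 and 99.4 TPM, nr2f6b 23.1 and 33.6 TPM and nr2f2 6.29 and 16.9 TPM in edn1-/- cells, and each overlapped its all-arch range. These 4 genes differed by -0.29 to -0.05, and the difference of nr2f1a was positive (0.11) with the replicate block. None of the 6 passed limma's threshold, and 0 of 6 had an unadjusted p under 0.05, where 1 gene of 13206 (0.00757%) passed and 2.79% had such a p.

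That gene was dlx4b, a ventral Dlx gene, at 2.92 TPM in edn1-/- cells, against 69.7 TPM in all-arch cells (difference -4.16, limma adjusted p = 0.006065). dlx3b averaged 15.3 TPM in edn1-/- cells and 295 TPM in all-arch cells without passing. The 4 upper jaw genes had positive differences with a median of 0.45, and 0 of them passed. pou3f3b averaged 1086 TPM in edn1-/- cells, against 586 TPM in all-arch cells. With this few mutant libraries the 95% intervals reached past 1 log2 unit for 5 of the 6 nr2f genes (not nr2f6a), so changes of that size remain possible for them. Summed skeletal muscle markers were 184 and 71.4 TPM in edn1-/- cells, against 551 to 1613 TPM in all-arch cells, and their part was not tested.

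The jag1b and heat-shock comparisons had 1 library per group and no test. A gene was counted when its log2 difference was at least 1 and its higher library held at least 10 TPM, which left nr2f2 out of the jag1b and heat-shock Edn1 counts. As a yardstick, the 3 all-arch libraries spanned 0.74 log2 units for nr2f1b, 0.48 for nr2f5, 0.20 for nr2f6a and 1.13 to 1.29 for the other 3 genes. A second yardstick, chosen after the values were seen, was the range over 5 control arch libraries, namely the all-arch, jag1b+/+ and Gal4 ones.

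nr2f1b was the family member that was low without jag1b. It had 76.5 TPM in jag1b-/- cells, against 218 TPM in jag1b+/+ cells, a ratio of 0.351 and a log2 difference of -1.50. That was below all 5 control libraries (123 to 218 TPM), as 17.8% of genes were, and 0.7% of 5718 genes were past the fold as lower and 0.192% as higher. The other 5 genes differed by -0.27 to 0.31, and of these nr2f6b alone lay outside the control libraries, just above them at 48.1 TPM, as 5.71% of genes did. nr2f1a had 211 TPM in jag1b-/- cells, against 255 TPM in jag1b+/+ cells, and nr2f5 had 40.1 TPM in jag1b-/- cells, against 37.6 TPM in jag1b+/+ cells. nr2f6a had 117 TPM in jag1b-/- cells, against 103.99 TPM in jag1b+/+ cells. nr2f1b made up 15.2% of the family in jag1b-/- cells, against 32.8% in jag1b+/+ cells.

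fgf20b fell in the same pair, to 0.727 TPM in jag1b-/- cells, against 18.98 TPM in jag1b+/+ cells (difference -3.53). pou3f3a and pou3f3b stopped short of the fold, at -0.82 and -0.97. Among the ventral genes 0 of 9 counted were past the fold in this pair. Summed epithelial markers were 58.0 TPM in jag1b-/- cells, against 430 TPM in jag1b+/+ cells, and their part was not tested.

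Heat-shock NICD went the other way for nr2f1b. It had 282 TPM in the NICD library, its highest level of the 19, against 143 TPM in the Gal4 library, a ratio of 1.97 and a log2 difference of 0.97, just short of the fold. nr2f5 had 74.1 TPM with NICD, against 46.4 TPM with Gal4 (difference 0.66), and nr2f1a had 179.8 TPM with NICD, against 119 TPM with Gal4 (0.59). nr2f2 and nr2f6b differed by 0.39 and 0.19, and nr2f6a by -0.14.

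Other markers also moved in this pair. Those of glia and crest progenitors summed to 1479 TPM with NICD, against 289 TPM with Gal4, and 4 of 4 counted were past the fold as higher. Arch neural crest markers summed to 2262 TPM with NICD, the lowest of the 13 arch libraries, against 3188 TPM with Gal4, and ear markers to 39.3 TPM, against 9.52 TPM. Endothelial markers summed to 66.1 TPM with NICD, against 24.8 TPM with Gal4, and red cell markers to 1392 TPM, against 3958 TPM. Venous and arterial markers summed to 290 TPM, against 116 TPM, and of 4 counted 2 were past the fold as higher and 1 as lower. Their part in the nr2f differences was not tested.

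None of the 6 was past the fold with NICD, where 5.04% of 6037 genes were past it as higher and 2.09% as lower. nr2f1b and nr2f5 were above all 5 control libraries, as 13.2% of genes were, and nr2f6a was below them, as 16.2% were. In this pair 3 of 4 upper jaw genes were past the fold as higher (pou3f3b 1.42, jag1b 1.25, fgf20b 1.22), and 5 of 8 ventral genes as lower, with a median of -2.72. The median gene was 0.15 higher with NICD.

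Heat-shock Edn1 left 1 family member past the fold, nr2f6b. It had 85.2 TPM in the Edn1 library, the highest of the 19, against 36.7 TPM in the Gal4 library, a ratio of 2.32 and a log2 difference of 1.19, where 2.42% of 5960 genes were past the fold as higher and 1.29% as lower. After median-of-ratios rescaling its difference was 0.98, below the fold, and the 3 all-arch libraries spanned 1.29 for this gene. nr2f6a had 123 TPM with Edn1, against 94.4 TPM with Gal4 (0.38), and both genes were above all 5 control libraries, as 15.6% of genes were.

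nr2f1b had 189 TPM with Edn1, against 143 TPM with Gal4 (0.40), and nr2f1a, nr2f2 and nr2f5 differed by 0.12 to 0.29. No family member was lower with Edn1 in this pair, where the median gene was 0.22 higher. pou3f3a had 25.2 TPM with Edn1, against 78.1 TPM with Gal4 (-1.60), and the ventral genes dlx4a and dlx4b were past the fold as higher (1.31 each). Summed red cell markers were 481 TPM with Edn1, against 3958 TPM with Gal4, and 6 of 6 were past the fold as lower. Their part in these differences was not tested. The Edn1 and NICD libraries share the Gal4 library.

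**Figure D4:**
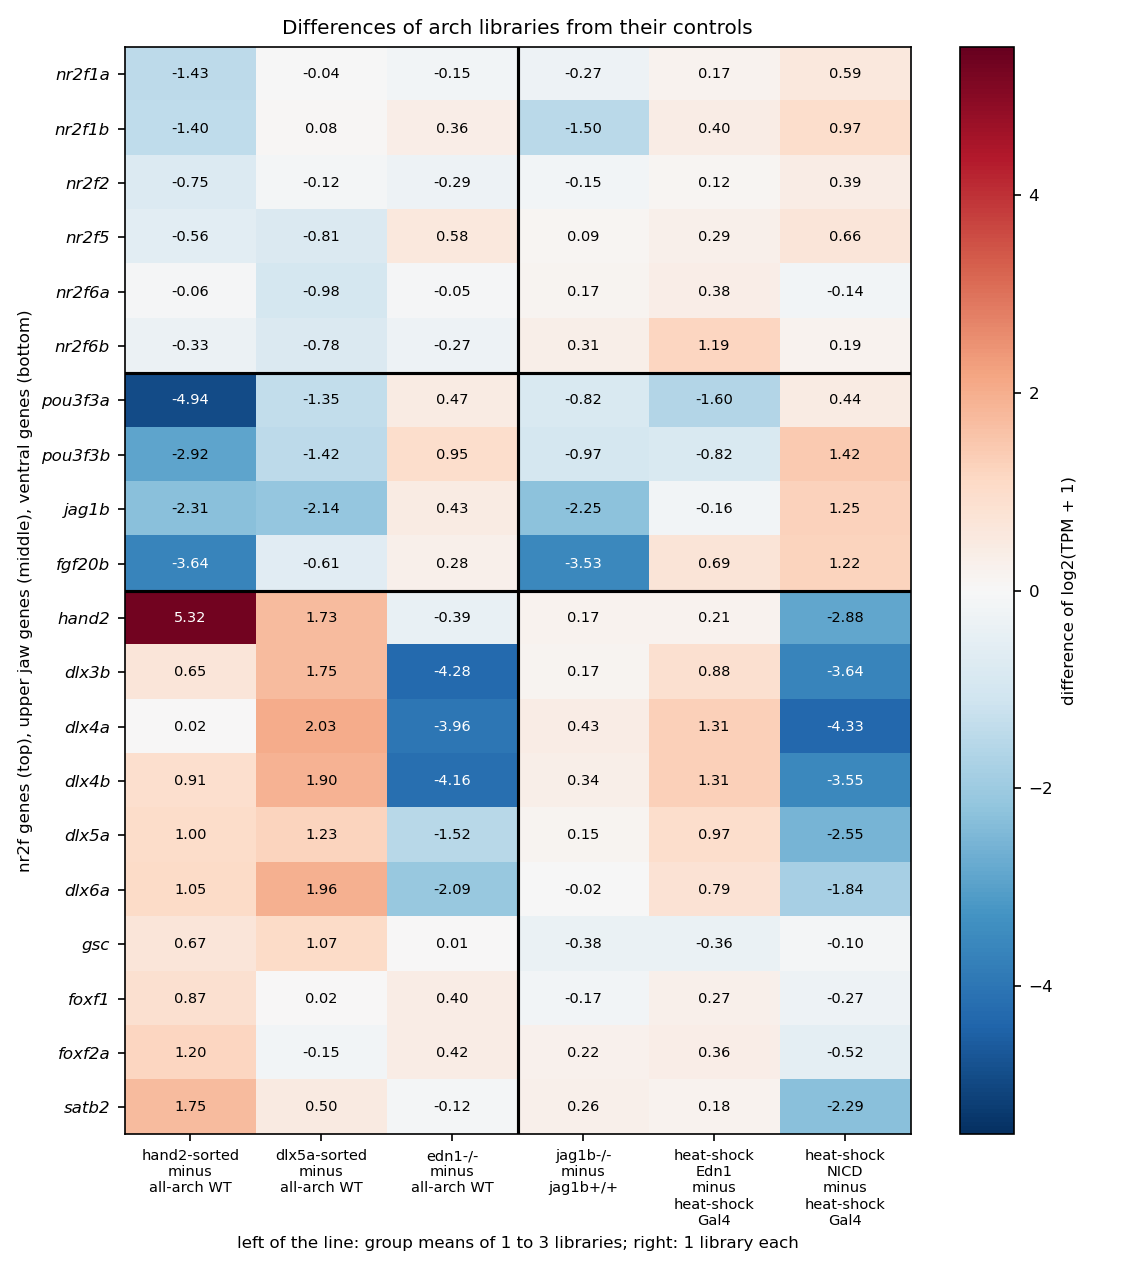
Differences of log2(TPM + 1) of the nr2f genes (top), 4 upper jaw genes (middle) and 10 ventral genes (bottom) in 6 comparisons within arch cells; red is higher and blue lower in the first-named cells, and the 3 right-hand columns rest on 1 library per group. nr2f1b has -1.40 in hand2-sorted cells, -1.50 in jag1b-/- cells and 0.97 with NICD, and fgf20b has -3.64, -3.53 and 1.22 there.

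Ordered by group level, nr2f1b ran from NICD (282 TPM) through jag1b+/+ (218), edn1-/- (202 ± 6.39), Edn1 (189), dlx5a-sorted (166), all-arch (161 ± 42.1) and Gal4 (143) to jag1b-/- (76.5) and hand2-sorted (62.4 ± 28.2), then fli1a-only (19.4 ± 5.79) and sox10-only cells (17.2 ± 6.29), as mean TPM ± SD where n is 2 or 3. The groups from edn1-/- to Gal4 lay within the all-arch range or overlapped it, jag1b-/- lay within the hand2-sorted range, and the step from hand2-sorted to fli1a-only cells had no overlap.

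nr2f5 was highest in edn1-/- cells (95.2 ± 22.0 TPM), sox10-only cells (74.6 ± 19.7) and the NICD library (74.1), then in all-arch cells (63.1 ± 10.8), the Edn1 library (57.0) and the Gal4 library (46.4). Hand2-sorted cells (42.6 ± 10.7), jag1b-/- (40.1), jag1b+/+ (37.6) and dlx5a-sorted cells (35.2) followed closely and overlapped, and fli1a-only cells (16.6 ± 7.38) stood below them all. For nr2f6a, hand2-sorted (107 ± 0.764 TPM) and all-arch cells (113 ± 8.34) overlapped, and dlx5a-sorted (56.6) and fli1a-only cells (50.8 ± 25.4) were lowest in TPM. Globin transcripts took 22.7% to 61.5% of the fli1a-only libraries. With globin genes left out, the difference of nr2f6a between fli1a-only and sox10-only cells changed sign, so the low place of fli1a-only cells depends on the scaling. nr2f1a and nr2f2 had their highest group mean in all-arch cells, and every group with more than 1 library overlapped the groups next to it in their order.

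Replicate numbers were compared within the family as a description. Libraries sharing a number deviated together over 6059 genes, and the share of all genes behind the counts below was not taken. These counts are therefore not read as a trait of the nr2f genes. In the 5 groups with more than 1 library, the library numbered 1 was the lowest of its group in 4 of 5 for nr2f1a, nr2f2 and nr2f6b, in 3 of 5 for nr2f1b, in 2 of 5 for nr2f5 and in 0 of 5 for nr2f6a. Within a number, hand2-sorted cells held 0.344 and 0.399 of the all-arch level of nr2f1b and 0.298 and 0.646 of that of nr2f1a. For nr2f5 they held 0.989 and 0.523, and edn1-/- cells held 2.18 and 1.19 times the all-arch level of that gene.

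Across the 13 arch libraries, nr2f1a and nr2f2 moved most alike within the family (Pearson r = 0.87 on log2 levels). nr2f1a and nr2f1b had r = 0.57, nr2f6a and nr2f6b 0.35 and nr2f1b and nr2f6a -0.23. Of 5939 genes with a mean of at least 10 TPM, the one most like nr2f1b was fgf20b (r = 0.877), followed by hmgn3 and tmem246 (0.869 each), emp2 (0.854) and pcbd1 (0.841), where the median gene had 0.08. Those closest to nr2f1a were calub (0.936), kdelr2a, kdelr2b, psma6b and fus, and those closest to nr2f2 were actb2 (0.965), arpc4l, atp6v1g1, ctdsplb and rap2b. nr2f5 was most like chp2 (0.934), nr2f6a most like znf654 (0.966) and nr2f6b most like eme1 (0.927). Over all 19 libraries, where arch and single-positive cells set much of the pattern, nr2f1b was closest to lin28a (0.950), grem2b (0.948), rpe65b, nfatc4 and gdf10a among 6059 genes, and nr2f1a to calub (0.889). These are descriptions over libraries that share controls and sorts. Some also share replicate numbers, and number 1 was the lowest library in 4 of 5 groups for both nr2f1a and nr2f2. The part of the replicate number in these r values was not tested.

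Partners and related pathways were read from lists of known genes. Among Rxr and Rar receptors, with which Nr2f proteins pair or compete, 7 of 10 were abundant enough to be tested against the single-positive cells. rarga, a retinoic acid receptor gene, averaged 19.1 TPM in all-arch cells, against 6.43 TPM in fli1a-only and 4.70 TPM in sox10-only cells, and was higher than in both (limma differences 1.52 and 1.83, adjusted p = 0.0315 and 0.00423). rargb was higher against sox10-only cells (1.41, limma adjusted p = 0.0244). Of the 7 tested, 1 was higher against fli1a-only and 2 against sox10-only cells, where 4.16% and 3.4% of all genes were. The median gene was itself 0.68 higher in all-arch than in fli1a-only cells. None of 8 tested passed in the hand2, dlx5a or edn1-/- comparisons, and none of the co-regulator genes tested, 4 of 8 found (ncor1 and bcl11 genes among the list), passed in any of the 6.

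Retinoic acid is known to raise Nr2f expression in vertebrate embryos, and 10 of 11 genes of its synthesis, breakdown and binding were tested. Against fli1a-only cells crabp2b, for a binding protein, was higher in all-arch cells (158 against 45.4 TPM, limma difference 1.79, adjusted p = 0.00764). cyp26c1, for a breakdown enzyme, was lower in all-arch cells (9.36 against 110 TPM, limma difference -3.52, adjusted p = 0.000338). Against sox10-only cells aldh1a2, for the synthesis enzyme, and cyp26b1, for another breakdown enzyme, were higher in all-arch cells (1.51 and 2.28, limma adjusted p = 0.0059 and 0.00936). Of the 10 tested, 1 was higher and 1 lower against fli1a-only cells, where 4.16% and 2.89% of all genes were. Against sox10-only cells 2 were higher and 0 lower, where 3.4% and 10% of all genes were. crabp2a was lower in hand2-sorted cells, at 12.9 TPM, against 61.1 TPM in all-arch cells (-2.17, limma adjusted p = 0.0164), and stood at 6.43 TPM in the single dlx5a-sorted library (-3.05). In hand2-sorted cells 1 of 10 passed as lower and 0 as higher, where 1.55% of all genes tested passed, and 4 differences were positive and 6 negative. crabp2b went the other way, at 306 and 277 TPM in hand2-sorted cells, against 142 to 181 TPM in all-arch cells, without passing. Of this list 0 passed in edn1-/- cells, where the median was 0.21.

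Among 7 endothelin pathway genes, the receptor genes ednraa and ednrab were lower in hand2-sorted cells, at 9.52 and 1.08 TPM, against 67.9 and 16.6 TPM in all-arch cells. Of 5 tested 2 passed, where 1.55% of all genes tested passed, and all 5 differences were negative. Of 7 Notch genes 0 passed in the hand2, dlx5a or edn1-/- comparisons. With NICD 3 were past the fold as higher (notch1a 2.98, notch3 2.15, hey1 1.82), where 5.04% of 6037 genes were. Whether reads of the NICD transgene, itself part of Notch, were counted toward a Notch receptor gene is not stated by the labels. The notch1a and notch3 values carry that uncertainty. Of 5 maxillary and frontonasal genes 2 were lower in hand2-sorted cells, alx1 (-4.06) and alx4a (-1.68), where 1.55% of all genes tested passed. Their differences in the single dlx5a-sorted library were -4.26 and -2.80. lhx6 had 57.6 and 76.5 TPM in hand2-sorted cells, against 36.5 to 62.3 TPM in all-arch cells, and these overlapped. lhx8a had 47.1 and 60.7 TPM in hand2-sorted cells, against 37.2 to 80.2 TPM in all-arch cells, and alx4b also overlapped its all-arch range.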

How the data were processed

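RNA from sorted zebrafish cells was sequenced as paired-end libraries made with the SMARTer kit, per the labels' protocols. The submitters' processing notes name TopHat2, Partek and GRCz10, without versions. The authors deposited TPM per gene, which keeps no depth, so no counting interval is given. Each deposited column summed to about 93168 and was multiplied by the constant 10.7333 to reach 1000000, which leaves ratios unchanged.

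The tests used limma 3.58.1 under R 4.3.3, on the log2(TPM + 1) scale (trend and robust empirical Bayes, 2-sided), on genes with a mean of at least 1 TPM, with Benjamini-Hochberg adjustment over all of them and a threshold of 0.05. For low genes this scale gives too small a change. The 3 wild-type sorts (9 libraries, 14270 genes) were fitted together, as were the all-arch, hand2, dlx5a and edn1-/- cells (8 libraries, 13206 genes). Scripts were tested on simulated data. Replicate numbers come from the titles. In the first fit, libraries sharing a number deviated together from their groups, with correlations of 0.441 to 0.827 over 3 pairs per pair of groups. The numbers were therefore taken to pair those libraries. Blocked values stand beside results on nr2f genes whose call they change. Genes of the other lists were read without the block, so their calls may differ with it.

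Alternatives changed the pseudocount, filter, scaling, variance model, block and libraries. All 6 genes are described, with lists given by counts and nearest patterns by the 5 highest Pearson r. The members and lists were chosen with earlier results of these data known. In the lists, msx1a and msx1b were not matched by name, and of the 2 rows of cyp26c1 the first was used, which has the higher level.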

Additional observations from a re-analysis of the deposited data

How the results depend on the processing

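nr2f1b was higher in all-arch than in fli1a-only cells in 21 of 21 settings (log2 difference 2.22 to 3.17) and than in sox10-only cells in 22 of 22 (2.62 to 3.39), and nr2f5 was lower in fli1a-only than in sox10-only cells in 21 of 21 (-2.45 to -1.24). None of the 6 genes passed in the hand2, dlx5a or edn1-/- comparisons in any setting run. nr2f5 no longer passed between all-arch and fli1a-only cells with no filter on low values (limma adjusted p = 0.0743).

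The number of nr2f genes higher in all-arch than in fli1a-only cells was 2 at first, 4 on the deposited scale, 1 with no filter, 4 with a mean of at least 10 TPM, 6 with the replicate block, 4 in 1 fit of all 19 libraries, and 1 to 6 when a replicate was left out. Against sox10-only cells it was 1 at first, 3 after median-of-ratios rescaling, 2 after quantile normalization and 2 with the replicate block. The genes added to nr2f1b there were nr2f1a and nr2f2, then nr2f2, then nr2f1a. Between fli1a-only and sox10-only cells 1 gene, nr2f1b, became higher under either rescaling (1.11 and 1.03), and 2 were lower with the replicate block. The number of all genes called moved with the setting too. Those higher in all-arch cells ran from 93 to 6353 against fli1a-only cells and from 207 to 1324 against sox10-only cells. The changes in the nr2f counts are therefore not read as a trait of the family. With heat-shock Edn1 the count past the fold was 0 on the deposited scale, where the minimum of 10 TPM is stricter, and 0 after median-of-ratios rescaling. In the other fit the numbers are shared by only 2 libraries per group (correlations 0.539, 0.663 and 0.719) and the block changed no member's call, while 94 genes were higher and 290 lower in hand2-sorted cells, against 39 and 166 without it. The dlx5a library has no number, so no paired value exists for it.

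Signs turned round only for differences that had not passed. Between fli1a-only and sox10-only cells nr2f1a was at 0.96, 0.81 and 0.75 after median-of-ratios rescaling, quantile normalization and removal of globin genes, nr2f2 at 0.67, 0.62 and 0.50, and nr2f6a at 0.25, 0.14 and 0.050, while nr2f6b was at 0.054 after the first of these. Leaving out a replicate there gave -0.40 to 0.33 for nr2f1a, -0.14 to 0.45 for nr2f1b and -0.55 to 0.095 for nr2f2. Between dlx5a-sorted and all-arch cells nr2f1a was at 0.46 and 0.015, and nr2f2 at 0.36 and 0.29, under the 2 rescalings, with replicates left out giving -0.35 to 0.22 for nr2f1a, -0.092 to 0.28 for nr2f1b and -0.47 to 0.12 for nr2f2. In hand2-sorted cells nr2f6a was at 0.10 after median-of-ratios rescaling, and nr2f6b ran from -0.79 to 0.13 with replicates left out. In edn1-/- cells nr2f1a was at 0.11 with the replicate block, and leaving out replicates gave -0.84 to 0.54 for nr2f1a, -0.94 to 0.36 for nr2f2 and -0.17 to 0.082 for nr2f6a. Against the 36 hpf sox10-only library alone nr2f6b was at -0.11. The cause was not tested.

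Counts over all genes moved more. Genes higher in all-arch than in fli1a-only cells numbered 594 at first and 93 to 6353 over the settings, and lower ones 412 and 163 to 979. Against sox10-only cells 485 were higher (207 to 1324) and 1430 lower (413 to 2080), and between fli1a-only and sox10-only cells 580 were higher (228 to 1349) and 3483 lower (1092 to 7648). In hand2-sorted cells 39 were higher (2 to 94) and 166 lower (0 to 290), in the dlx5a-sorted library 10 higher (0 to 323) and 42 lower (0 to 80), and in edn1-/- cells 0 higher (0 to 3) and 1 lower (0 to 4). The shift of the median gene between all-arch and fli1a-only cells was 0.68 at first and 0.06 after median-of-ratios rescaling.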

Other observations

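The sox10-only libraries carry different stage labels, and the nr2f genes were read in that order as values with no test, since each stage is 1 library. nr2f1a was at 87.7, 123 and 212 TPM at 20, 28 and 36 hpf, nr2f5 at 58.9, 68.4 and 96.7 TPM, nr2f2 at 3.46, 8.11 and 9.95 TPM and nr2f6b at 16.7, 21.6 and 36.5 TPM. nr2f1b, at 10.05, 21.9 and 19.6 TPM, and nr2f6a, at 83.0, 54.8 and 89.8 TPM, did not follow that order. The all-arch libraries with the same replicate numbers, all labelled 36 hpf, held nr2f1a at 169.8, 282 and 372 TPM, nr2f5 at 50.8, 67.2 and 71.3 TPM and nr2f6b at 18.96, 42.3 and 47.8 TPM, while nr2f2, at 7.63, 18.4 and 15.4 TPM, did not keep that order there. Stage and replicate number cannot be told apart in the sox10-only cells.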
